A study of Mus musculus with 4 samples.

Results

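Collagens are the chain-forming proteins of the extracellular matrix, and the report describes their genes in mouse primary intestinal epithelial cells given cytokine and growth factor. The members are all genes whose array symbol is Col, digits, a and digits: 42 genes, read from 82 probe sets, of 18193 genes on the array, each read from its brightest probe set (by mean log2 over the arrays). Of these, 11 encode fibrillar chains, 8 chains of basement membranes (type IV and the multiplexins XV and XVIII) and 23 other types. The study put 1 Affymetrix array on each of 4 groups: a combination of interleukin-17A (IL-17A) and fibroblast growth factor 2 (FGF2), FGF2 alone at 5 ng/ml, IL-17A alone at 50 ng/ml, each for 6 h, and no treatment. All groups were cultures of isolated mouse crypts on fibronectin in serum-containing medium. No strain, sex or age of the mice was given in the sources used here, nor any step that takes out other cells of the gut wall.

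As background, collagen chains wind around each other into helices. Fibrillar types I, III and V form the rope-like fibrils of the lamina propria and submucosa, and are made mainly by fibroblasts and smooth muscle cells. Type IV forms the sheet under epithelia and around muscle and vessels, type VI forms beaded filaments around cells, and the fibril-associated (FACIT) types XII, XIV and XVI sit on fibril surfaces. In wound repair new collagen is laid down and old collagen is cut by matrix metalloproteinases.

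Values are MAS5 signals, which have no unit. Levels of different probe sets cannot be set against each other, so comparisons run between arrays for 1 gene at a time. Signals under a floor of 89.8, the median of all signals, were raised to the floor, and a gene over it on at least 1 array is called measured. This held for 26 of 42 collagen genes (9 fibrillar, 6 basement membrane and 11 other), 23 of them over the floor on all 4 arrays, against 12258 measured genes in the whole table. With 1 array per group the spread between replicates was not measured, and fold changes are between single arrays. A fit that adds up both factors' effects over the 4 arrays, with the interaction as its only residual, was not run. As a yardstick, each factor's effect can be read from a pair of arrays without the other factor and a pair with it, and these pairs share no array. The difference of these readings (the interaction), divided by the square root of 2, had an SD on the log2 scale of 0.29 in the dimmest measured genes (mean log2 below 8), 0.20 between 8 and 10, 0.13 between 10 and 12 and 0.09 in the brightest. In the same bins its size had 99th percentiles of 0.83, 0.62, 0.39 and 0.30. True interaction between the factors is part of this yardstick.

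The cells were labelled epithelial, and 8 of 9 epithelial marker genes were measured, among them Epcam with signals of 18315 on the combined array, 17806 on the FGF2 array, 16949 on the IL-17A array and 16578 on the untreated array. The stem cell marker Lgr5 was under the floor on every array. Markers of other cells were measured in every group too: 11 of 11 fibroblast markers with a gene, 6 of 6 of smooth muscle, 8 of 8 of endothelium, 5 of 5 of macrophages and 3 of 3 of glia with a gene, but 0 of 4 of T cells. In such a mixture, fewer cells of a type and less RNA per cell cannot be told apart.

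Most measured collagen genes were lower on both arrays with FGF2 than on both arrays without it. In the brightest probe sets, IL-17A alone gave little difference in all but 1 of the measured collagen genes. Both FGF2 arrays were below both others for 18 of 26 measured members, 69.2%, against 24.2% of all measured genes, and above both others for 3 of 26 (Col5a3, Col8a1 and Col13a1), against 24.6% of all. Col13a1 passed the floor only on the arrays with FGF2, and Col24a1, below, only on those without it. For these genes the filter and the direction rest on the same arrays. Among the 23 members over the floor on all arrays, 17 were below and 2 above. By class, 6 of 9 fibrillar, 5 of 6 basement membrane and 7 of 11 other genes were below. This layout takes no account of size. Col18a1 counts as below with 5027 on the combined array and 5057 on the IL-17A array, and only 1 of the 6 basement membrane genes (Col4a5) was 2-fold lower with both factors or with FGF2 than untreated. The same layout for IL-17A gave 2 of 26 below and 0 above, against 14.6% and 13% of all measured genes.

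**Figure D1:**
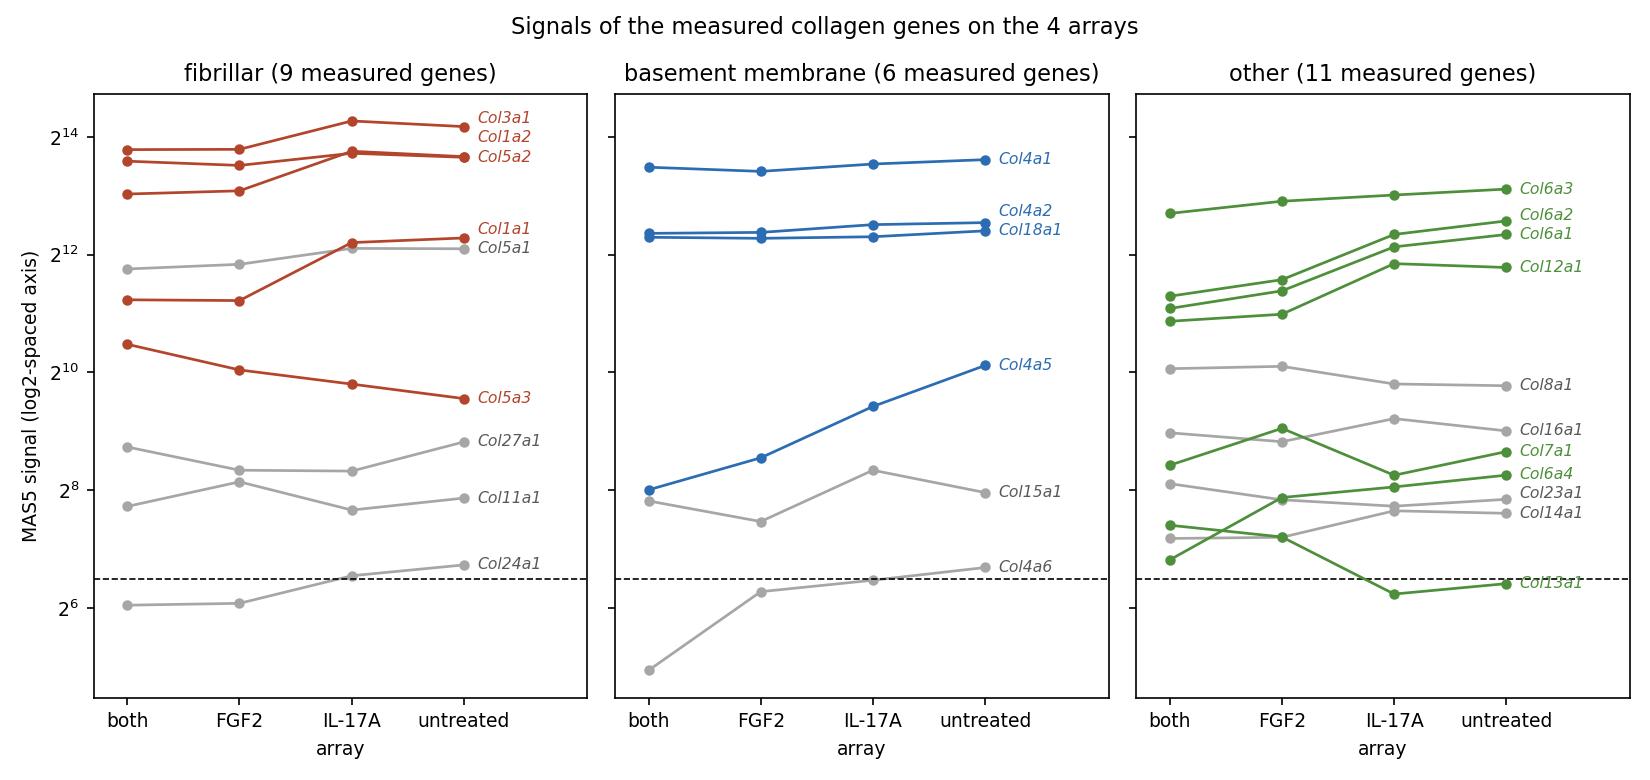
Signals of the 26 measured collagen genes by class on the combined (both factors), FGF2, IL-17A and untreated arrays, on a log2-spaced axis; each point is 1 array, lines only join the points of a gene, the dashed line is the floor of 89.8, and genes whose values are given in full are in colour. Col1a1, Col6a1, Col6a2 and Col12a1 step down on both arrays with FGF2, and Col4a5 is also lower on the IL-17A array. In the brightest probe sets, drawn here, Col4a1, Col4a2 and Col18a1 are nearly level.

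At 2-fold, the combination had 5 of 26 measured collagen genes lower than untreated cells (19.2%, against 1.73% of all measured genes) and 0 higher (0.906% of all). FGF2 alone had 2 of 26 lower (0.963% of all) and 0 higher (0.473% of all). IL-17A alone had 0 lower (0.228% of all) and 0 higher (0.375% of all). Set against IL-17A alone, the combination had 4 lower (0.857% of all) and 0 higher (0.547% of all). Set against FGF2 alone it had 1 lower (0.269% of all) and 0 higher (0.367% of all). At 1.5-fold, 7 were lower and 2 higher with both factors than untreated (6.52% and 3.34% of all), 5 and 1 with FGF2 (4.82% and 2.34%), and 1 and 0 with IL-17A (1.95% and 1.44%). The combination had 7 lower and 2 higher at that fold than IL-17A alone (4.09% and 2.8% of all), and 2 and 0 against FGF2 alone (2.06% and 1.83%). The genes 1.5-fold higher include Col13a1, which passed the floor only on the arrays with FGF2. These comparisons share arrays, so their counts are not independent of each other.

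The fibrillar class was led downward by type I, the main collagen of connective tissue. Col1a1, its alpha 1 chain, had a signal of 2408 on the combined array, 2386 on the FGF2 array, 4722 on the IL-17A array and 4986 on the untreated array. Both arrays with FGF2 were thus about level with each other and well below both without it: 2.07-fold lower with both factors and 2.09-fold with FGF2 than in untreated cells, and 1.96-fold lower with both than with IL-17A. A dimmer probe set of Col1a1 gave 2.04- and 2.06-fold against untreated.

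Col1a2, the alpha 2 chain that pairs with it, had 8360 with both factors, 8684 with FGF2, 13833 with IL-17A and 12983 in untreated cells. The order of the arrays was like that of Col1a1, but the ratios were smaller, 1.55-fold lower with both factors and 1.495-fold with FGF2. Another probe set of Col1a2, with signals of 3268, 3332, 7297 and 7576 in the same order, put it 2.32-fold and 2.27-fold lower. Both sets had the same 2 arrays low and differed in how far, and another was over the floor on the untreated array only.

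Type III showed the widest gap between probe sets. Col3a1, which encodes the chain of the thinner fibrils laid down with type I, had 14100 with both factors, 14149 with FGF2, 19755 with IL-17A and 18489 in untreated cells, 1.31-fold lower for each of the arrays with FGF2. Its dimmer probe set had 1594 with both factors, 1545 with FGF2, 4002 with IL-17A and 3909 in untreated cells. By that set Col3a1 was 2.45-fold lower with both factors and 2.53-fold lower with FGF2, so it would count among the genes past 2-fold.

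Type V regulates the width of type I fibrils, and its chains parted. Col5a2 was nearly level in its brightest probe set, with 12306, 11710, 13508 and 12884 on the combined, FGF2, IL-17A and untreated arrays, while a dimmer set gave 1.42-fold lower with both factors and 1.44-fold lower with FGF2. Col5a1 was 1.27-fold lower with both factors and 1.20-fold with FGF2, and its dimmest set over the floor gave 1.68- and 1.67-fold.

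Col5a3, the least widely expressed chain of type V, went the other way. Its signal was 1426 with both factors, 1055 with FGF2, 893 with IL-17A and 753 in untreated cells. Each single factor stood above untreated and the combination above each, 1.89-fold over untreated (log2 0.92, past the 99th percentile of 0.62 for genes of its brightness). FGF2 alone, at 1.401-fold, was inside that range. Its only other probe set was under the floor on every array.

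The remaining measured fibrillar genes were Col11a1, Col24a1 and Col27a1, whose log2 ratios to untreated cells lay between -0.50 and 0.28 over all 3 treatments. Col27a1 had opposite differences for FGF2 in its pairs, -0.48 against untreated and 0.41 for both factors against IL-17A, each inside the 99th percentile for its brightness, while its interaction, scaled as above, was 0.63 against a percentile of 0.62. Its dimmer probe set, over the floor on all 4 arrays, gave -0.03 and -0.12 for these pairs, so the opposite differences were seen in 1 set only. Col2a1, the cartilage chain, and Col11a2 were under the floor on every array. The class median over 9 genes was -0.24 with both factors, -0.26 with FGF2 and 0.01 with IL-17A against untreated, on the log2 scale, beside medians of 0.00, -0.01 and -0.01 over all measured genes.

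**Figure D2:**
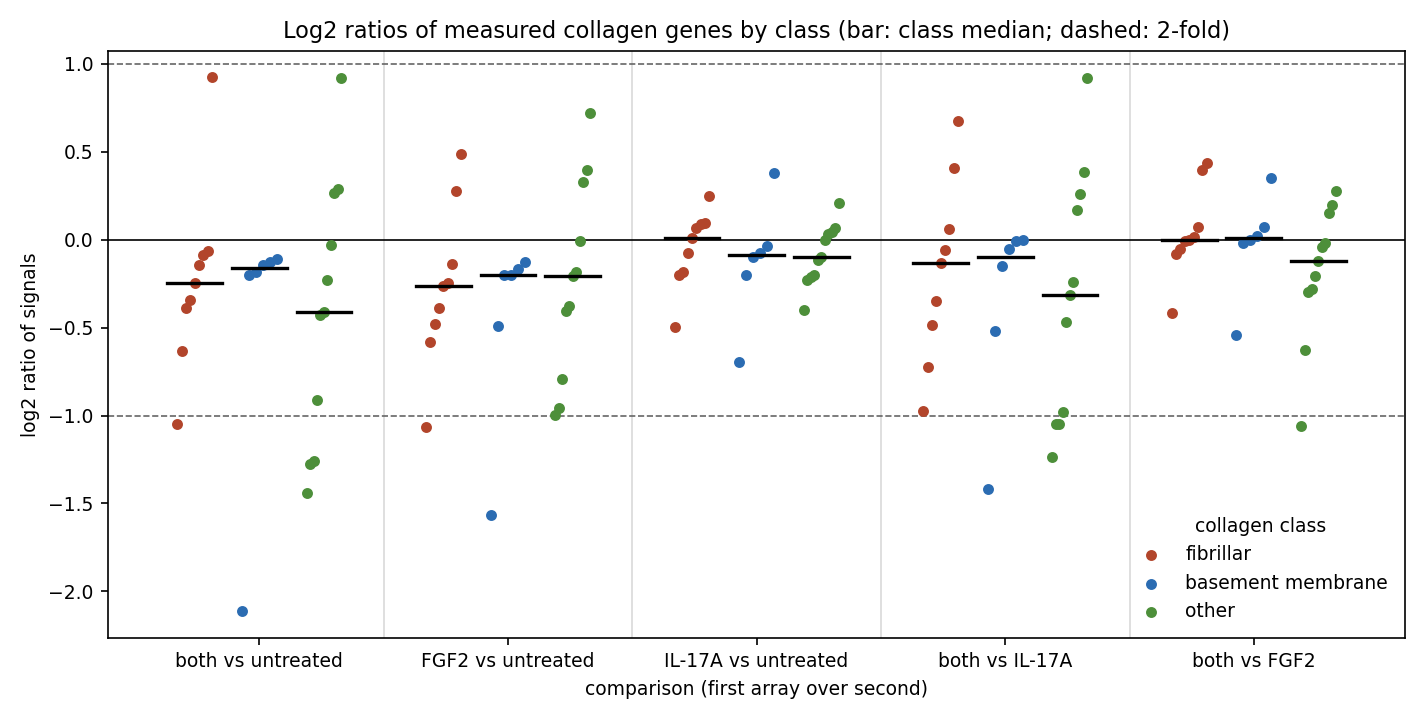
Log2 ratio of signals for each measured collagen gene (points) in 5 comparisons, by class, with the class median as a bar and 2-fold as dashed lines. Points below -1 are genes at least 2-fold lower, such as Col4a5 at -2.11 for both factors against untreated; the IL-17A column stays between -0.70 and 0.38.

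Among basement membrane genes 1 chain was past 2-fold. Col4a5, the X-linked alpha 5 chain of type IV, mutated in Alport syndrome in humans, had a signal of 257 on the combined array, 375 with FGF2, 686 with IL-17A and 1112 in untreated cells. Each factor alone was below untreated and the combination lowest: 4.32-fold lower with both, 2.97-fold with FGF2 and 1.62-fold with IL-17A. In the brightest probe sets, Col4a5 was the only measured collagen gene at least 1.5-fold different with IL-17A alone (1 of 26 lower, against 1.95% of all measured genes). A dimmer probe set of Col4a5 gave 135, 185, 304 and 402 in the same order of arrays, 2.99-fold lower with both factors and 2.17-fold with FGF2. With IL-17A that set was 1.32-fold lower, short of 1.5-fold, and its log2 difference of -0.40 was inside the 99th percentile of 0.83 for its brightness. On the log2 scale the combined difference of -2.11 lay close to the sum of the single ones, the interaction, scaled as above, being 0.11 against an SD of 0.20.

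The widely made chains of type IV differed less. Col4a1 had 11465 on the combined array, 10915 with FGF2, 11902 with IL-17A and 12531 in untreated cells. Col4a2, its partner in the common type IV trimer, had 5262, 5323, 5832 and 5972 in that order. In these probe sets their ratios to untreated cells were at most 1.15-fold, and the largest log2 difference of either, -0.20, was inside the 99th percentile of 0.30. A dimmer set of Col4a1 had 2877, 2519, 2556 and 3347 in the same order. It put Col4a1 1.16-fold lower with both factors, 1.33-fold with FGF2 and 1.31-fold with IL-17A, and its FGF2 difference of -0.41 was past the 99th percentile of 0.39 for that brightness. Col18a1, a multiplexin whose C-terminal fragment is endostatin, had 5027, 4964, 5057 and 5421, a spread of similar size.

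Col15a1, the other multiplexin, was dim and had no probe set to set beside its own, with log2 ratios of -0.14 with both factors, -0.49 with FGF2 and 0.38 with IL-17A. Col4a6 passed the floor on the untreated array only (103), and Col4a3 and Col4a4, the chains of the kidney trimer with alpha 5, were under it everywhere. The median over the 6 measured genes was -0.16 with both factors, -0.20 with FGF2 and -0.09 with IL-17A.

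Type IV genes lie in head-to-head pairs. In RefSeq's GRCm38.p6 promoter table the start sites of Col4a1 and Col4a2 face away from each other so closely that their first 22 bases overlap, while those of Col4a6 and Col4a5 on chromosome X are 1343 bases apart. In the brightest probe sets both genes of the first pair were nearly level over the arrays, while the dimmer set of Col4a1 was 1.33-fold lower with FGF2. Of the X-linked pair Col4a5 had a wide range, and Col4a6 was near the floor, too dim to compare with it.

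Type VI, the beaded filament type, held the largest joint difference among the other collagens. Col6a1 had 2174 with both factors, 2676 with FGF2, 4490 with IL-17A and 5193 in untreated cells. Col6a2 had 2512, 3051, 5197 and 6093 in the same order. These partner chains ran nearly in parallel, 2.39- and 2.43-fold lower with both factors than in untreated cells, 1.94- and 1.997-fold with FGF2 and 1.16- and 1.17-fold with IL-17A. Col6a2 with FGF2 lay just short of 2-fold (log2 -0.998) and was not counted.

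Col6a3, the third chain of the common type VI trimer, differed less: 6655 with both factors, 7682 with FGF2, 8264 with IL-17A and 8861 in untreated cells, 1.33-fold lower with both and 1.15-fold with FGF2. It has 1 probe set, so there was no other reading of Col6a3. Col6a4, a chain that can stand in for alpha 3, was dim, with 113 on the combined array, 235 with FGF2, 266 with IL-17A and 306 in untreated cells. Only its combined array was low, 2.71-fold below untreated and 2.08-fold below FGF2, and its scaled interaction of -0.61 was inside the 99th percentile of 0.83 for dim genes. Col6a5 was under the floor on every array.

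Of the FACIT genes 3 of 9 were measured. Col12a1, which encodes a fibril-linking chain of tissues under tension, had 1870 with both factors, 2032 with FGF2, 3685 with IL-17A and 3522 in untreated cells. Arrays with FGF2 were again low, 1.88-fold with both factors and 1.73-fold with FGF2 against untreated, and 1.97-fold with both against IL-17A. The other probe set of Col12a1 over the floor gave 1.47- and 1.82-fold against untreated, but 1.16-fold for both factors against IL-17A. Col14a1 was 1.34-fold and 1.33-fold lower with both factors and FGF2, and Col16a1 within 1.16-fold of untreated on every array.

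Transmembrane and anchoring types leaned upward or were mixed. Col13a1, a membrane-bound collagen of cell-matrix junctions, had 170 with both factors and 148 with FGF2, and was under the floor with IL-17A (75.5) and in untreated cells (85.3). It was thus at least 1.89-fold and at least 1.65-fold above untreated, as seen from the floor. Col23a1 lay between log2 -0.12 and 0.27 of untreated, while a dimmer set of it over the floor gave 0.56 with both factors, 0.30 with FGF2 and 0.08 with IL-17A. Col17a1, the hemidesmosome collagen of basal epithelial cells, was under the floor on every array, as was Col25a1.

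Col7a1, which forms the fibrils that anchor basement membrane to stroma, had 344 with both factors, 530 with FGF2, 305 with IL-17A and 403 in untreated cells. FGF2 alone was the high array and both arrays with IL-17A were low. The combination was 1.54-fold below FGF2, a log2 difference of -0.63 beside a 99th percentile of 0.62. Col8a1, a short chain collagen of vessel walls, was 1.22-fold higher with both factors and 1.26-fold with FGF2. A dimmer set of Col8a1 over the floor gave 1.49- and 1.33-fold, and 1.27-fold with IL-17A. Over the 11 measured genes outside the fibrillar and basement membrane classes the median log2 ratio to untreated was -0.41 with both factors, -0.21 with FGF2 and -0.10 with IL-17A, and for the 4 of type VI alone it was -1.27, -0.67 and -0.20.

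The response to FGF2 was read again in the presence of IL-17A, on arrays not used in the first reading. Across the 26 measured members, the log2 ratios of FGF2 to untreated and of both factors to IL-17A correlated with r = 0.874 (rho = 0.843), against r = 0.592 over all measured genes. Genes of 1 array pair share its RNA samples and scaling and are not replicates. At 1.5-fold, 5 of 26 were lower in both pairs (Col1a1, Col4a5, Col6a1, Col6a2 and Col12a1), against 2.02% of all measured genes, and 1 was higher in both (Col13a1), against 1.09%. Col13a1 was measured only through the arrays with FGF2, so its direction in these pairs followed from the filter. At 2-fold 1 was lower in both (Col4a5), against 0.424% of all, and 0 higher, against 0.359%. For IL-17A, 0 of 26 passed 1.5-fold in both of its pairs in either direction (0.522% of all lower, 0.579% higher), nor 2-fold (0.0979% lower, 0.204% higher), and r was 0.509.

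**Figure D3:**
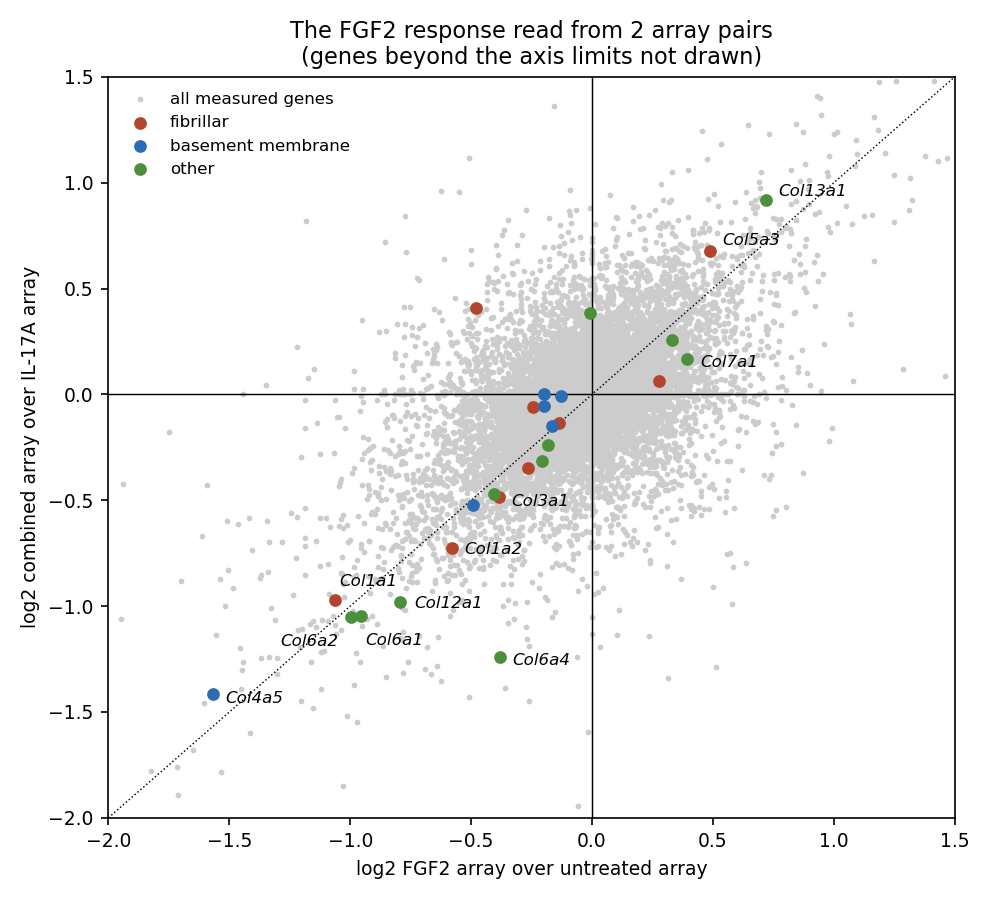
Log2 ratio of the FGF2 array over the untreated array (horizontal) and of the combined array over the IL-17A array (vertical) for the measured collagen genes by class, with all measured genes in grey and the line of equal ratios dotted. Most collagen points lie near the dotted line in the lower left; Col6a4 is lower in the second pair, and Col5a3 and Col13a1 lie in the upper right.

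Against the yardstick, 9 of 26 measured members were below untreated by more than the 99th percentile for their brightness with both factors, 7 with FGF2 and 1 with IL-17A (Col4a5, in its brightest probe set only). Those above it numbered 2 with both factors (Col5a3 and Col13a1), 0 with FGF2 and 0 with IL-17A. Of these, Col13a1 was measured only through the arrays with FGF2. The share of all measured genes past these limits was not counted. The percentiles are those of the scaled interaction, so they do not give the share to be found in a comparison with untreated cells. The yardstick is narrowest for bright genes, so Col3a1 at -0.39 passed it and Col15a1 at -0.49 did not.

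Probe sets of a gene often differed in size but seldom in direction. For 14 collagen genes at least 2 probe sets were over the floor on all arrays. The dimmer set (the median of them where several) showed the larger difference in 10 of 14 genes for both factors against untreated and in 9 of 14 for FGF2 against untreated. The gap for both factors against untreated was widest for Col3a1 (-0.39 in the brightest set and -1.29 in the dimmer), Col1a2 (-0.64 and -1.21) and Col4a5 (-2.11 and -1.58), and in Col4a5 the brightest set had the larger difference. In Col4a1 the sets gave -0.13 and -0.22 for both factors, -0.20 and -0.41 for FGF2 and -0.07 and -0.39 for IL-17A. The cause of the gaps between sets was not tested. Directions against untreated were shared by all sets for both factors in these 14 genes, while for FGF2 those of Col18a1 (-0.13 and 0.04 on the log2 scale) and Col23a1 (-0.01 and 0.30) were not.

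**Figure D4:**
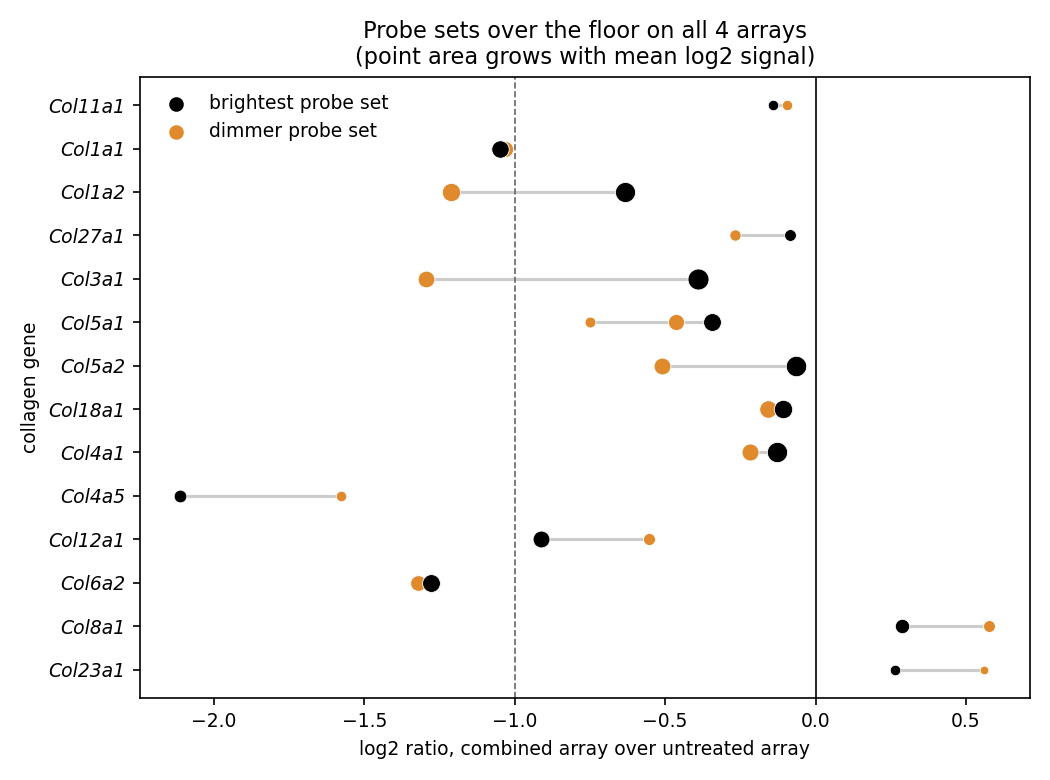
Log2 ratio of the combined array over the untreated array for every probe set over the floor on all arrays, for the 14 collagen genes with at least 2 of them; black is the brightest set, orange the dimmer ones, and the point area grows with mean log2 signal. Both sets of Col1a1 lie near -1.05 and -1.03, while those of Col3a1 lie at -0.39 and -1.29.

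Promoters of some of the genes that were low together with FGF2 are shown: Col1a2, Col4a5, Col6a1 and Col6a2. Each is the 250 bases before the RefSeq start site (GRCm38.p6, 5′ to 3′ on the gene's strand). Where a gene has several start sites, the one furthest upstream was taken. Capitals mark matches, on either strand, to CCAAT (the box of that name), to GGGCGG (the letters of Sp1 sites) and to TGACTCA (those of AP-1 sites). TATAAA, the TATA box, was searched too and had no match in them, and no match overlaps another. Col1a2 is at chr6:4505368-4505617 (plus strand), Col4a5 at chrX:141475169-141475418 (plus), Col6a1 at chr10:76726045-76726294 (minus) and Col6a2 at chr10:76623631-76623880 (minus).
Col1a2: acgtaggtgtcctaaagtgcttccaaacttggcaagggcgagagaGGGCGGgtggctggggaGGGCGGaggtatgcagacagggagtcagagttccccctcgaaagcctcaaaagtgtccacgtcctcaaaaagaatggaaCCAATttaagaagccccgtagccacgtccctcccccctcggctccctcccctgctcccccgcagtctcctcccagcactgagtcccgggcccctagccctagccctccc
Col4a5: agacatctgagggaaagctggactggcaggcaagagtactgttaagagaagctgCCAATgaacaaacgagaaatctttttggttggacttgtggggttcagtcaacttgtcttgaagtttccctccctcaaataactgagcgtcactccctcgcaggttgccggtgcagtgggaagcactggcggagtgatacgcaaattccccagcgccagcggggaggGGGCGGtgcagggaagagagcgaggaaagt
Col6a1: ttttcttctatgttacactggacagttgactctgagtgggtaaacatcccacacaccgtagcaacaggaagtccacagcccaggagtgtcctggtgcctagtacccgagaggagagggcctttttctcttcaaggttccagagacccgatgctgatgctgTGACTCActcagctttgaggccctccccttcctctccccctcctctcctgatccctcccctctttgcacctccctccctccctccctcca
Col6a2: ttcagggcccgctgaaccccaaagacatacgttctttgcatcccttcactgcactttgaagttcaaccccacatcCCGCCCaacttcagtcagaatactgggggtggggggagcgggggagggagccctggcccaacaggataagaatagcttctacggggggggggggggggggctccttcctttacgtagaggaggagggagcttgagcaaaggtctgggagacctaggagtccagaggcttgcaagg

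These windows share no single match among the 4 motifs. Col1a2 has CCAAT at -109 to -105 from the start and 2 copies of GGGCGG, Col4a5 has CCAAT at -196 to -192 and GGGCGG at -30 to -25, Col6a1 has TGACTCA at -90 to -84, and Col6a2 has GGGCGG on the other strand. The table matched 33 of 42 collagen genes, with 36 windows. Col1a1 and Col12a1 had no window. Col3a1, also lower on both arrays with FGF2, had a window with TATAAA that is not shown. CCAAT was in 36.1% of collagen windows and 33.8% of all 32851 windows, GGGCGG in 58.3% and 32.7%, TATAAA in 13.9% and 12.4%, and TGACTCA in 2.78% (Col6a1) and 4.46%. A match of letters does not show a bound site.

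Of 31 entries for genes that make and cross-link collagen 25 were measured. With both factors 1 was at least 2-fold lower (1.73% of all measured genes) and 0 higher (0.906% of all), with a median log2 ratio of 0.00, so the counts were near those shares. Pcolce, an enhancer of procollagen cleavage, was the 1 past 2-fold, with 1027 on the combined array, 1077 with FGF2, 1843 with IL-17A and 2210 in untreated cells, 2.15-fold lower with both and 2.05-fold with FGF2. Its arrays stood in the same order as those of Col6a1 and Col6a2.

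The collagen chaperone Serpinh1 (10573, 11367, 11703 and 11099 on the combined, FGF2, IL-17A and untreated arrays) and the matrix-binding protein Sparc (18883, 18723, 19637 and 18534), the brightest of the list, were within 1.06-fold of untreated. Lox and Pcolce2 were chosen after their values were seen. Lox, the cross-linking lysyl oxidase, was 1.61-fold lower with both factors and 1.51-fold with FGF2, while Pcolce2 was 1.74- and 1.78-fold higher.

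Of 6 measured collagen-degrading proteases, Mmp13 and Mmp9 were at least 2-fold higher with both factors (0.906% of all measured genes) and with FGF2 (0.473% of all), and 0 were lower. Mmp13, the main rodent collagenase, had 9027 with both factors, 5639 with FGF2, 1674 with IL-17A and 1398 in untreated cells, 6.46-fold and 4.03-fold higher with both and with FGF2. Mmp9, a gelatinase, had 952, 494, 124 and 109 in that order. Mmp14, the membrane-bound collagenase, had 5523, 5349, 4186 and 4141, 1.33- and 1.29-fold higher. Mmp2, another gelatinase, had 3684, 3463, 3552 and 3433 and was within 1.07-fold of untreated. Ctsk, a cysteine protease, was 1.13- and 1.23-fold lower with both factors and FGF2, and the collagenase Mmp8 1.16-fold higher with both and 1.18-fold lower with FGF2.

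Of 6 measured collagen receptor genes 0 passed 2-fold in any treatment, where at most 1.73% of all measured genes were lower and 0.906% higher, so 0 of 6 does not set the list apart. Itgb1, the shared integrin beta chain, had 6635 with both factors, 7626 with FGF2, 6542 with IL-17A and 6423 in untreated cells. Ddr1, a collagen-binding kinase, had 4307, 3701, 5575 and 5463 in that order, 1.27-fold lower with both factors and 1.48-fold with FGF2. Of 12 measured genes of TGF-beta signalling, a main inducer of collagen genes in fibroblasts, 1 was at least 2-fold higher (0.906% of all measured genes) and 1 lower (1.73% of all) with both factors. Tgfb1 had 492 with both factors, 457 with FGF2, 225 with IL-17A and 232 in untreated cells, 2.12-fold higher with both. Tgfb3 had 269, 406, 360 and 543, 2.02-fold lower with both. The receptor gene Tgfbr2, with 4983, 5088, 7022 and 7088, was 1.42-fold lower with both factors, and the TGF-beta target Ccn2, with 20544, 20915, 20896 and 19542, within 1.07-fold of untreated.

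Marker genes of mesenchymal cells differed along with the collagens in some lists, and their part in the collagen values was not tested. All 6 smooth muscle markers were below untreated with both factors (median log2 -0.77) and with FGF2 (-0.76), where 49.6% and 51.6% of all measured genes were below. At least 2-fold lower were 3 with both factors (1.73% of all) and 1 with FGF2 (0.963% of all). Their summed signal was 23176 with both factors, 24919 with FGF2, 35126 with IL-17A and 34352 in untreated cells. Such a sum weighs the brightest probe sets most.

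Fibroblast markers, chosen without collagens, were mixed. With both factors 6 of 11 were below untreated and 5 above (median log2 -0.03), where 49.6% of all measured genes were below. With FGF2 7 were below and 4 above (median -0.29), where 51.6% of all were below. The summed signal of these markers was 58708, 55450, 58211 and 55510 on the combined, FGF2, IL-17A and untreated arrays. Vim, with 23063 on the combined and 18254 on the untreated array, was the largest term of this sum. Pdgfra, the receptor that marks fibroblasts of the gut wall, was 2.52-fold lower with both and 2.13-fold with FGF2, and Dpt, which binds collagen fibrils, 3.73- and 4.50-fold lower. Twist2, a mesenchymal transcription factor, was 2.25-fold higher with both and 1.69-fold with FGF2. Vim (1.26-fold with both), Dcn (1.46-fold), Lum (1.29-fold) and Pdgfrb (1.09-fold) were higher too. Thy1 (1.45-fold with both), Postn (1.39-fold), Tcf21 (1.37-fold) and Fbln1 (1.02-fold) were lower, and so was Lum with FGF2 alone (1.22-fold).

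Endothelial markers were above untreated with both factors in 7 of 8 genes (median 0.50) and with FGF2 in 8 of 8 (0.43). Of all 12258 measured genes, 5911 and 5651 were above untreated in these comparisons. At least 2-fold higher was 1 endothelial marker with both factors (0.906% of all) and 0 with FGF2 (0.473% of all). The summed signals of endothelial markers were 9513, 8876, 5887 and 6187 on the combined, FGF2, IL-17A and untreated arrays. Epithelial markers summed to 140705, 139135, 136868 and 132698. With both factors 6 of the 8 measured ones were above untreated and 2 below (median 0.09), where 49.6% of all measured genes were below. Vil1 had the widest difference, with 2655, 3417, 3630 and 4297 in that order, 1.62-fold lower with both factors and 1.26-fold with FGF2. Macrophage markers summed to 2883, 2991, 3218 and 3409, glial ones to 1145, 859, 1318 and 1260, and those of T cells, at most 71.95 in sum, were all under the floor.

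**Figure D5:**
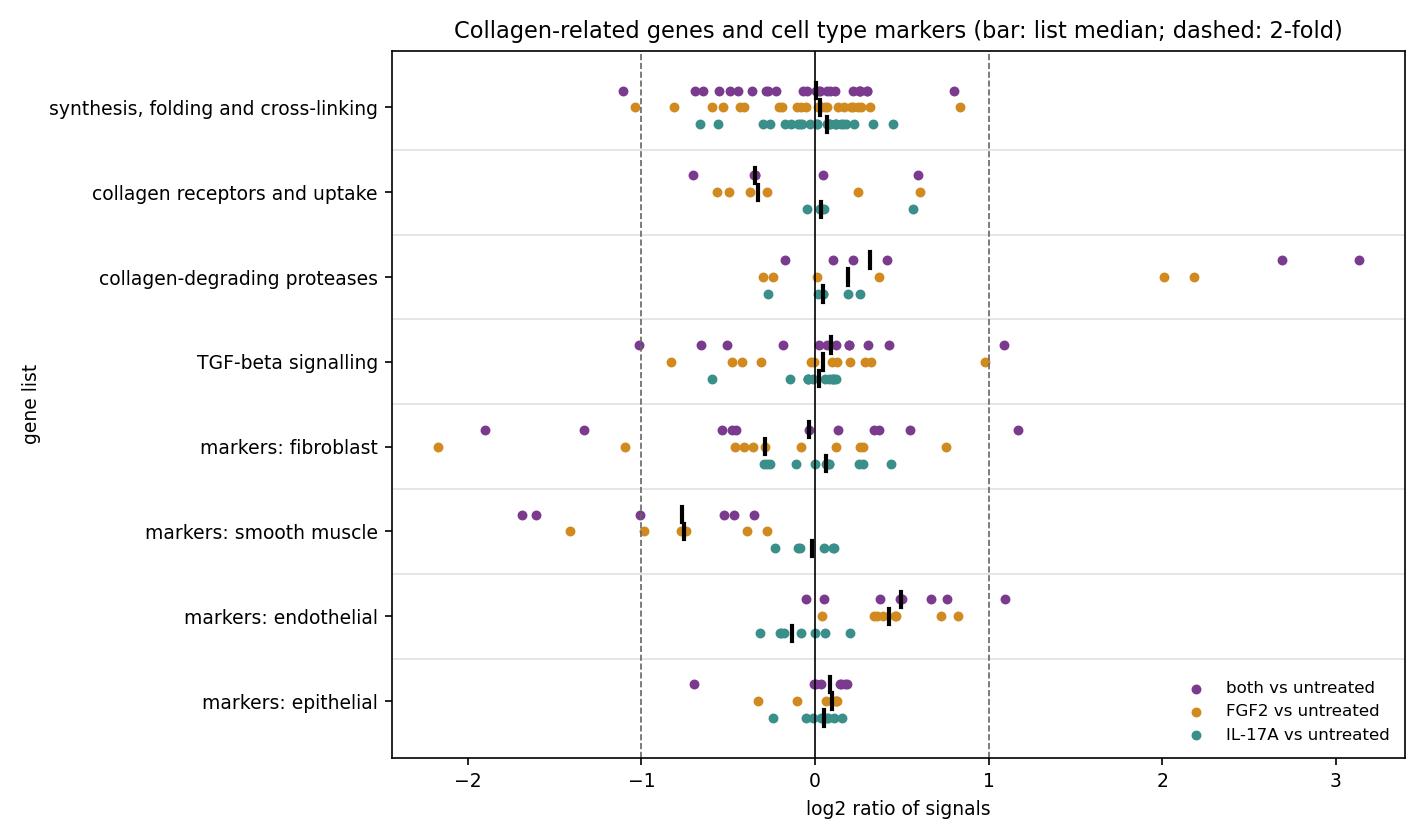
Log2 ratio to untreated cells of each measured gene of 4 collagen-related lists and 4 marker lists, for both factors, FGF2 and IL-17A (colours), with list medians as bars and 2-fold as dashed lines. Smooth muscle markers lie left of 0 and endothelial markers mostly right of 0 with both factors and with FGF2; the proteases past 2 are Mmp13 and Mmp9.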

How the data were processed

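Each array was deposited by the authors as a column of log2 values, 1 for every probe set. MAS5 is named in the submitters' processing notes, with no version; as background, it uses mismatch probes, and its dim values are noisy. The deposited log2 columns share an antilog trimmed mean (2% off each end) of 500, which shows scaling to that value. Of 45101 probe sets, 64 controls were left out, and 34945 had 1 symbol in the platform annotation. All 42 collagen symbols matched GRCm38.p6 by Entrez identifier, and 0 changed.

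Main values use the floor, a 2-fold threshold and the brightest probe set per gene. Full values are given for members at least 1.5-fold different in any of 5 comparisons and for the 3 brightest of each class; of the related lists, for genes past 2-fold against untreated and the 2 brightest. Members, classes and lists were chosen with earlier results of these data known. List entries without a gene symbol on the array were not analysed here. Alternatives were quantile normalization, median scaling, other floors, the mean of all probe sets, probe sets without cross-hybridizing suffixes and other folds. The number of arrays limits the precision. Calculations used Python 3.11.15, numpy 2.4.6 and pandas 2.3.3, and were tested on simulated arrays. Sequences are RefSeq's.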

Additional observations from a re-analysis of the deposited data

How the results depend on the processing

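No paired analysis was possible because the labels give no replicate numbers that groups could share; the pairs of arrays that differ in 1 factor stand in the report. Leaving out an array would remove a group and was not run. No collagen gene past 2-fold turned its direction under an alternative, but the counts are small and many moved; the cause was not tested, except that higher floors keep fewer genes. Median scaling shifted the median of all measured genes by 0.14 for both factors against untreated and by 0.12 against IL-17A, and its changes are to be read relative to that. The counts of collagen genes 2-fold lower and higher were 5 and 0 for both factors against untreated, 2 and 0 for FGF2 against untreated, 4 and 0 for both against IL-17A and 1 and 0 for both against FGF2. Under median scaling, 2 were higher for both factors against untreated, 1 lower for FGF2 against untreated, 2 lower and 1 higher for both against IL-17A, and 0 lower for both against FGF2. That last count was also 0 with quantile normalization, a floor at the 75th percentile, an added floor, averaged probe sets and a 3-fold threshold. A floor at the 25th percentile (39 members measured) gave 1 higher for both against untreated, for IL-17A against untreated and for both against IL-17A, and 3 lower and 2 higher for both against FGF2; at the 75th percentile (17 measured) 2 were lower for both against IL-17A. At 1.5-fold, 2 were higher for both against untreated, 5 lower and 1 higher for FGF2, 1 lower for IL-17A, 7 lower and 2 higher for both against IL-17A, and 2 lower for both against FGF2. At 3-fold 1 was lower for both against untreated, 0 for FGF2 and 0 for both against IL-17A.

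Of the related genes, 2 were lower and 3 higher for both factors against untreated, 1 and 2 for FGF2, 0 and 3 for both against IL-17A and 0 and 0 for both against FGF2. Those lower for both factors were 1 with quantile normalization, the 75th percentile and the added floor, 0 with median scaling and at 3-fold, and 6 at 1.5-fold (5 higher). Those lower for FGF2 were 0 with median scaling, the added floor, averaged probe sets and 3-fold, and 4 at 1.5-fold (5 higher), with 1 higher at the 75th percentile. At 1.5-fold 2 were lower for IL-17A, 5 for both against IL-17A, and 1 lower and 2 higher for both against FGF2. With the 25th percentile 5 were higher for both against IL-17A, and median scaling and averaged probe sets each gave 1 higher for both against FGF2.

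The fibrillar median for both factors against IL-17A, -0.13, was -0.35 with the 25th percentile floor, -0.42 with the 75th, -0.35 over averaged probe sets and -0.36 over probe sets above the floor on all arrays, a setting chosen after seeing the data. The median of the other class at the 25th percentile floor was -0.051 for both factors against untreated, -0.0094 against IL-17A and 0.18 against FGF2, where the main values were -0.41, -0.31 and -0.12, so the last turned its sign.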
